A study of Caenorhabditis elegans with 4 samples.

Results

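The genes examined here build the polarity of the one-cell *Caenorhabditis elegans* embryo. They are *par-1*, *par-2*, *par-3*, *par-4*, *par-5*, *par-6*, *pkc-3*, *lgl-1*, *cdc-42* and *let-99*, 10 of the 42048 genes in the deposited table, chosen by name as the anterior and posterior partitioning-defective (PAR) network. All 10 members were found in the table and all 10 passed the limit on low values, which 13060 genes passed. The study compared whole embryos with and without the germ plasm proteins MEG-1 and MEG-2, to learn what happens to maternal mRNA in their absence. Embryos labelled *meg-1 meg-2* came from worms with *meg-1(vr10)*, a partial deletion of that gene, fed bacteria for *meg-2* RNAi, and wild-type embryos came from N2 worms fed bacteria with the empty vector, L4440 RNAi. Both genotypes were therefore raised on RNAi bacteria, from synchronized first-stage larvae to adults, and their embryos were released by bleaching. Each genotype had 2 samples, each a pool of embryos from 1 culture of worms. The N2 worms differ from the others in strain as well as in RNAi, so an effect of *meg-1(vr10)*, of *meg-2* RNAi and of the strain background cannot be told apart.

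In the zygote, the PAR proteins sort into an anterior and a posterior cortical domain that exclude each other. PAR-3, PAR-6, the atypical protein kinase PKC-3 and the GTPase CDC-42 hold the anterior cortex, and the kinase PAR-1, the RING finger protein PAR-2 and LGL-1 hold the posterior cortex. The posterior kinase PAR-1 then sets up opposing gradients in the cytoplasm, through MEX-5 and MEX-6, which bring germ plasm and the granules that MEG proteins help to build to the posterior. The proteins are laid down largely from maternal mRNA, and the polarity of the zygote is a matter of where proteins lie, which RNA levels from whole embryos do not measure.

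Levels are given as fpm, which are reads scaled by size factors and expressed per 1e+06 reads of a common library size. The table holds the mean of both libraries of a genotype, and whole reads of each library were recovered from these means. Within each genotype the libraries are named A and B, and they were not matched to the replicates of the labels. From 20662429 to 26017429 reads fell on genes in a library, and the 10 members had from 674 to 12650 reads each in a library. A count of 0 allows up to 3 reads, or 0.114 to 0.149 fpm, and covers counting error only. The targeted genes followed the labels. *meg-1* had 19 and 18 reads in *meg-1 meg-2* libraries, against 1933 and 2423 in wild type, and *meg-2* had 141 and 172 reads in *meg-1 meg-2* against 515 and 677 in wild type. The tissue label also held, since the 12 early maternal markers, from *pie-1* to *cbd-1*, and the 8 markers of differentiating embryos were all at levels that could be tested, while the 6 yolk genes of the adult intestine summed to at most 2.94 fpm and the 5 sperm genes to at most 4.16 fpm in a library. The spread within wild type was wider. Over the better expressed of the tested genes, the 6530 not below the median level, the log2 difference had an SD of 0.10 between *meg-1 meg-2* libraries and 0.22 between wild-type libraries. Wild-type library A stood apart, with a median 0.18 lower than library B on the log2 scale.

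Most of the PAR network was carried at similar RNA levels in both genotypes, and the clearest differences were at 2 genes that moved in opposite directions. *par-1* fell to 0.669 of its wild-type level in *meg-1 meg-2* embryos, and *let-99* rose 1.56-fold. The remaining 8 members differed by at most 1.22-fold, and none of them passed the test. A gene was called when it changed at least 1.5-fold with a limma *P*-value below 0.05 after Benjamini-Hochberg adjustment over all tested genes. By this rule 1 of the 10 members, *let-99*, was higher, where 2.34% of all tested genes were, and 0 were lower, where 1.36% were. *par-1* passed the adjusted *P*-value but missed the fold change, with the same test. Without the minimum fold change, 1 member was higher (2.57% of all tested genes) and 1 was lower (1.52% of all). At an unadjusted *P*-value, with the fold change kept, 1 member was higher and 0 were lower, against 4.23% and 3.94% of all tested genes.

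**Figure D1:**
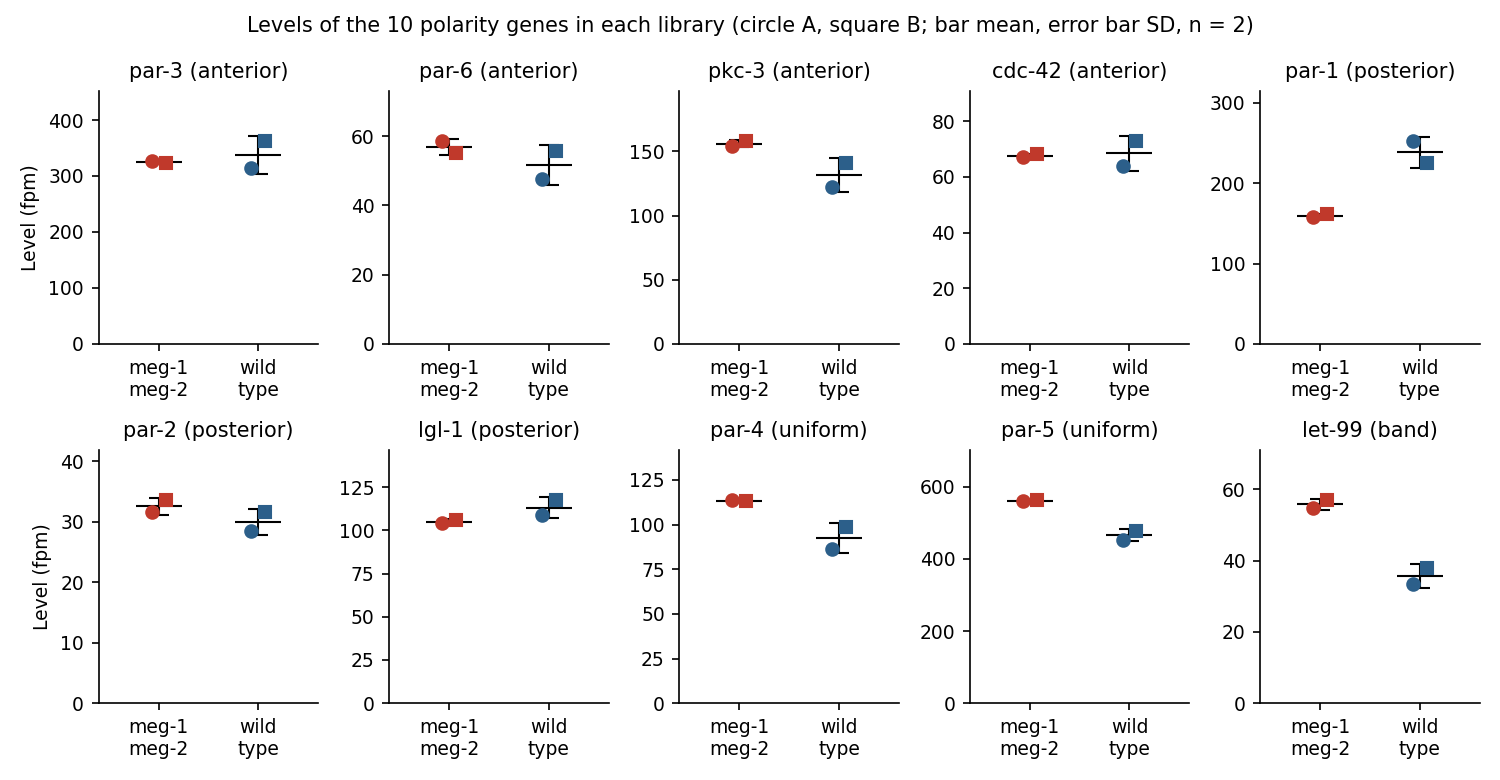
Level of each of the 10 genes in fpm (y axis, from 0, with its own scale per gene) in *meg-1 meg-2* embryos (red, left) and wild-type embryos (blue, right). Circles are library A, squares library B, bars the mean and error bars the SD (*n*=2). *par-1* is lower and *let-99* higher in both *meg-1 meg-2* libraries than in both wild-type libraries.

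*par-1* encodes the serine/threonine kinase of the posterior cortex, which acts on MEX-5 and keeps the anterior proteins out of the posterior. It lies on chromosome V, from 14112033 to 14145367 of the WBcel235 build on the minus strand, where 18 transcripts are annotated. It had 158 and 161 fpm in the *meg-1 meg-2* libraries (3567 and 3241 reads) and 252 and 225 fpm in the wild-type libraries (6632 and 5860 reads). The genotypes did not overlap, with *par-1* lower in *meg-1 meg-2*, and the gap between the genotypes was larger than the difference between the wild-type libraries. The mean was 159.6±2.48 fpm in *meg-1 meg-2* and 239±19.5 fpm in wild type (SD, *n*=2). In limma this was −0.55 on the log2 scale, with a standard error of 0.11, a 95% interval from −0.82 to −0.28 and an adjusted *P*-value of 0.0470. Against wild-type library A alone, *par-1* in *meg-1 meg-2* stood at 0.632 of its level, and against wild-type library B alone at 0.710. In bulk RNA, fewer cells that carry a transcript and less of it per cell cannot be told apart.

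*let-99* encodes a protein with a DEP domain that forms a band on the lateral posterior cortex and limits the force generators that position the spindle. It lies on chromosome IV, from 12567842 to 12570622 of WBcel235 on the plus strand. The *meg-1 meg-2* libraries had 54.8 and 56.9 fpm (1238 and 1143 reads), and the wild-type libraries had 33.4 and 38.04 fpm (877 and 992 reads). The libraries did not overlap, and *let-99* was higher in *meg-1 meg-2*. It averaged 55.8±1.5 fpm in *meg-1 meg-2* and 35.7±3.31 fpm in wild type (SD, *n*=2). Its log2 fold change in limma was 0.59, with a standard error of 0.12, a 95% interval from 0.30 to 0.88 and an adjusted *P*-value of 0.0470. The ratio to wild-type library A alone was 1.67, and the ratio to wild-type library B alone was 1.47.

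The calls at *par-1* and *let-99* stood close to both thresholds. Count models fitted to the recovered reads gave log2 fold changes of −0.65 (edgeR adjusted *P*=0.0148) and −0.62 (DESeq2 adjusted *P*=6.13e-06) for *par-1*, and of 0.58 (edgeR adjusted *P*=0.0144) and 0.61 (DESeq2 adjusted *P*=2.34e-04) for *let-99*. With the 1.5-fold minimum, edgeR called 0 members higher (2.88% of all tested genes) and 1 lower, *par-1* (2.5% of all). DESeq2 called 1 member higher, *let-99* (3.22% of all), and 1 lower, *par-1* (2.11% of all). Both count models rescaled the libraries, which placed the median of all tested genes at −0.08 with edgeR and at −0.05 with DESeq2. Leaving out a library moved both genes. Without *meg-1 meg-2* library A or B, the log2 fold change was 0.62 and 0.57 at *let-99* and −0.54 and −0.57 at *par-1*. Without wild-type library A it was 0.51 at *let-99* and −0.47 at *par-1*. Without wild-type library B it was 0.68 at *let-99* and −0.63 at *par-1*. Each of these fits leaves a genotype without a replicate, so only the effect size is given. The directions of both genes were the same in every one of the 14 alternatives fitted.

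**Figure D2:**
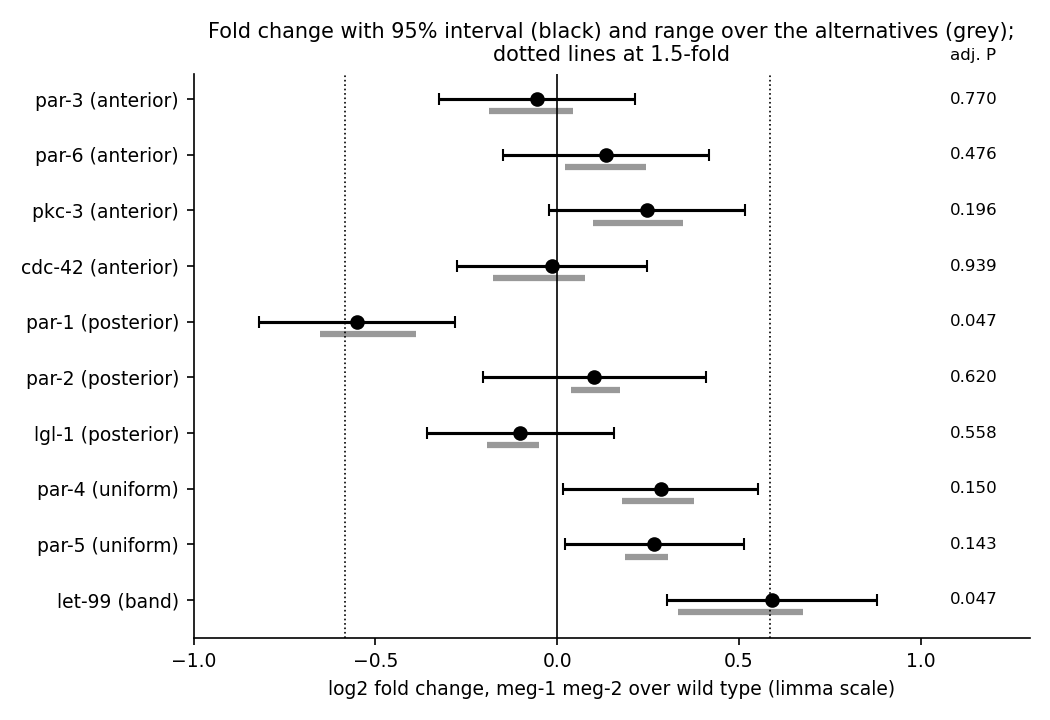
log2 fold change for each gene (x axis, above 0 where *meg-1 meg-2* is higher than wild type), with its 95% interval from limma (black) and the range over the alternative fits (grey), and limma's adjusted *P*-value on the right. Dotted lines mark 1.5-fold, the solid line no difference. The intervals of *par-1* and *let-99* reach past 1.5-fold, and those of the other 8 genes lie within it.

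The anterior genes showed no difference that passed the test. *par-3*, a scaffold with PDZ domains that clusters at the anterior cortex (chromosome III, 5664233 to 5676795), had 326 and 323 fpm in *meg-1 meg-2* libraries and 314 and 362 fpm in wild-type libraries. The *meg-1 meg-2* libraries lay between the wild-type libraries, and the log2 fold change was −0.05 (limma adjusted *P*=0.770). For *par-6*, which encodes the adaptor that joins PKC-3 to CDC-42 (chromosome I, 12669380 to 12674449), the libraries of *meg-1 meg-2* held 58.5 and 55.2 fpm, against 47.7 and 55.8 fpm in wild type. The genotypes overlapped at *par-6* too (log2 fold change 0.13, limma adjusted *P*=0.477).

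*pkc-3*, the kinase that removes PAR-1, PAR-2 and LGL-1 from the anterior cortex (chromosome II, 5380027 to 5384169), had 154 and 158 fpm in *meg-1 meg-2* libraries and 122 and 141 fpm in wild-type libraries. Both *meg-1 meg-2* libraries were higher, with a mean ratio of 1.19, a log2 fold change of 0.25 and a limma adjusted *P*-value of 0.196. *cdc-42*, which activates the anterior complex (chromosome II, 7616452 to 7618245), had 67.1 and 68.2 fpm in *meg-1 meg-2* libraries, between the 64.1 and 72.9 fpm of the wild-type libraries. Its log2 fold change was −0.01 (limma adjusted *P*=0.939). The sign at *par-3* and *cdc-42* depended on the wild-type libraries, and without library B the log2 fold changes were 0.04 and 0.08.

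The other posterior genes differed less than *par-1*. *par-2*, the RING finger protein that protects the posterior domain (chromosome III, 1081401 to 1095082), was the shallowest member and had 31.6 and 33.6 fpm in *meg-1 meg-2* libraries (714 and 674 reads), against 28.5 and 31.6 fpm in wild type (750 and 823 reads). The lower *meg-1 meg-2* library and the higher wild-type library were separated by 0.0302 fpm. The log2 fold change of *par-2* was 0.10 (limma adjusted *P*=0.620). *lgl-1*, the homolog of the tumour suppressor Lethal giant larvae that acts in parallel to PAR-2 (chromosome X, 864097 to 871089), had 104 and 106 fpm in *meg-1 meg-2* libraries and 109 and 117 fpm in wild-type libraries. It was lower in both *meg-1 meg-2* libraries, at −0.10 on the log2 scale (limma adjusted *P*=0.558).

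The genes of the uniformly distributed PAR proteins had slightly higher means in *meg-1 meg-2*. *par-4*, the homolog of the kinase LKB1 (chromosome V, 18098687 to 18106405), had 113.5 and 113.0 fpm in *meg-1 meg-2* libraries and 86.4 and 98.6 fpm in wild-type libraries. The genotypes did not overlap, and the ratio of the means was 1.22 (log2 fold change 0.28, limma adjusted *P*=0.150). *par-5*, a 14-3-3 protein that binds phosphorylated PAR proteins (chromosome IV, 11820506 to 11821924), was the deepest member, with 559.7 and 562 fpm in *meg-1 meg-2* libraries (12650 and 11297 reads) and 454 and 478 fpm in wild-type libraries (11926 and 12477 reads). The ratio of its means was 1.20, or 0.27 on the log2 scale (limma adjusted *P*=0.143), and its libraries did not overlap.

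*ftt-2*, the other 14-3-3 gene of the worm and a near copy of *par-5*, ran the other way. It had 343 and 382 fpm in *meg-1 meg-2* libraries and 435 and 412 fpm in wild-type libraries, or −0.22 on the log2 scale (limma adjusted *P*=0.219). *par-5* and *ftt-2* together had 903 and 944 fpm in *meg-1 meg-2* libraries and 889 and 889.99 fpm in wild-type libraries. The ratio of *par-5* to *ftt-2* was 1.63 and 1.47 in *meg-1 meg-2* libraries, against 1.04 and 1.16 in wild-type libraries, with no overlap. How reads that match both genes were counted is not given in the sources used here, so the split between them is uncertain.

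The intervals give a measure of what these libraries could miss. For the 8 members other than *par-1* and *let-99*, the 95% intervals of the fold change lay between 0.779 and 1.47, within 1.5-fold in either direction. These intervals are not adjusted for the number of genes and rest on 2 libraries per genotype. They are on the limma scale, which understates changes of low genes, so a larger change is not excluded with certainty. Libraries of the genotypes did not overlap for 5 members that were higher in *meg-1 meg-2* (*par-2*, *par-4*, *par-5*, *pkc-3* and *let-99*) and for 2 that were lower (*par-1* and *lgl-1*). Over all tested genes, 34.2% were higher and 30.4% lower without overlap. The median log2 fold change of the members was 0.12, beside −0.00303 over all 13060 tested genes, 0.03 over the 11041 protein-coding ones and 0.13 over the better expressed 6530. Without wild-type library A the median of the members was 0.03, and without wild-type library B it was 0.20.

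Exons of 4 members overlap exons of genes on the opposite strand. The kit keeps strand, but the strand setting of the counting is not given in the sources used here. *par-3* shares 184 bp of exon with *F54E7.9* on the opposite strand, which had 595 and 482 reads in *meg-1 meg-2* libraries and 476 and 643 reads in wild-type libraries. *cdc-42* shares 8 bp with *R07G3.8*, which had 391 and 326 reads in *meg-1 meg-2* against 662 and 545 in wild type. *par-1* shares 14 bp with *H39E23.2* and 75 bp with *H39E23.4*, each with at most 4 reads in a library, and *pkc-3* shares 33 bp with *ccpp-6*, with at most 21 reads. *let-99* shares no exon with another annotated gene.

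Between genes, levels were compared per length, as FPKM per kb of the gene length in the table. This length equals the longest annotated coding sequence for 7 of the 10 members and is longer for *par-1*, *par-2* and *par-3*. In *meg-1 meg-2* embryos the order from high to low was *par-5*, *cdc-42*, *pkc-3*, *par-3*, *par-6*, *par-4*, *lgl-1*, *par-1*, *let-99* and *par-2*. *par-5* stood at 751 FPKM in *meg-1 meg-2* and 624 FPKM in wild type, and *cdc-42*, the next, at 117 FPKM in *meg-1 meg-2* and 119 FPKM in wild type. At the low end, *par-2* had 13.9 FPKM in *meg-1 meg-2* and 12.8 FPKM in wild type. Of the neighbours in this order, *par-6* and *par-4* overlapped between libraries in *meg-1 meg-2*, at 61.2 and 61.1 FPKM.

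By the gene length in the table, the wild-type order had 1 gene in another place. *par-1* stood between *par-6* and *par-4* in wild type, at 49.9 FPKM, and below *lgl-1* in *meg-1 meg-2*, at 33.4 FPKM against 37.2 FPKM for *lgl-1*. In wild type, the libraries of *pkc-3* and *par-3*, of *par-6* and *par-1*, and of *par-1* and *par-4* overlapped. Among tested protein-coding genes, the level of *par-1* lay at percentile 56.4 in *meg-1 meg-2* and 71.1 in wild type, and that of *let-99* at percentile 50.4 in *meg-1 meg-2* and 39.7 in wild type. With the longest annotated transcript as the length, *par-5* stayed first and *par-2* last in both genotypes, while *cdc-42* moved to rank 5 in *meg-1 meg-2* and rank 4 in wild type. Between the genotypes, *par-3* and *pkc-3*, *cdc-42* and *par-4*, and *par-1* and *par-6* then traded places. By that length *let-99*, at 24.4 FPKM in *meg-1 meg-2* and 15.6 FPKM in wild type, overlapped with *par-2* in wild type and not in *meg-1 meg-2*.

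**Figure D3:**
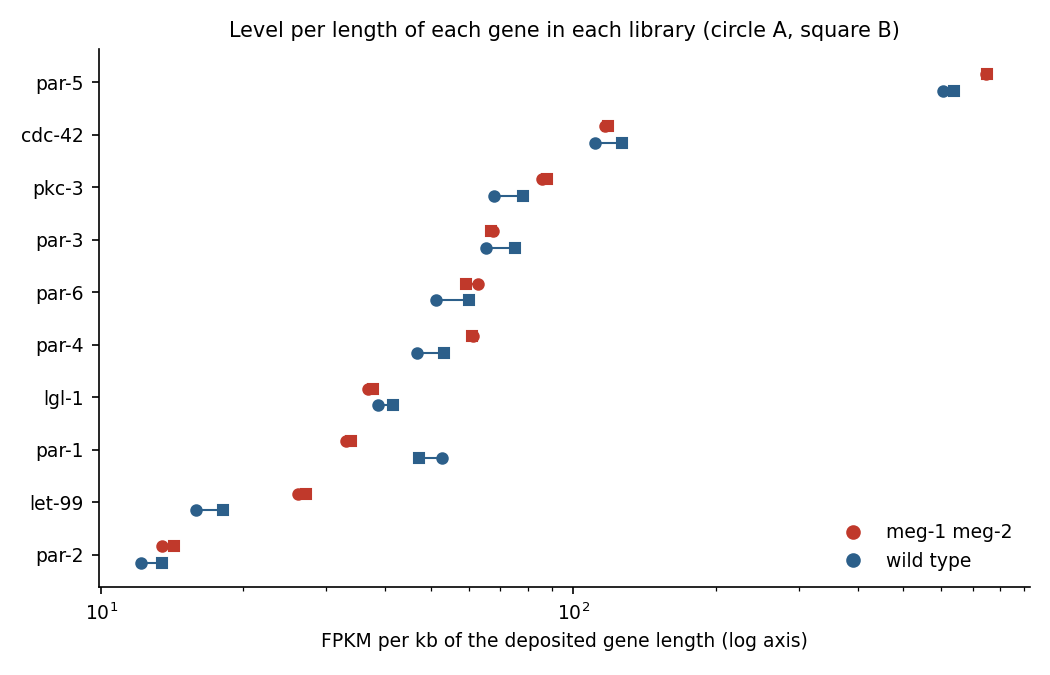
Level of each gene in each library as FPKM per kb of the deposited gene length (x axis, log scale), sorted by the *meg-1 meg-2* mean. *meg-1 meg-2* libraries are red and drawn above the wild-type libraries in blue, with circles for library A and squares for library B. *par-5* lies far above the other genes. By this length, *par-1* is the gene whose place in the order differs between the genotypes.

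The ratio of the arms was higher in both *meg-1 meg-2* libraries, and its size depended in part on *par-1*. Summed fpm of the anterior genes *par-3*, *par-6*, *pkc-3* and *cdc-42* over summed fpm of the posterior genes *par-1*, *par-2* and *lgl-1* gave ratios of 2.06 and 2.01 in *meg-1 meg-2* libraries, against 1.41 and 1.69 in wild-type libraries. The mean ratio was 2.04±0.0400 in *meg-1 meg-2* and 1.55±0.201 in wild type (SD, *n*=2). The genotypes did not overlap, and the exact two-sided permutation *P*-value was 0.333, the smallest that 2 libraries against 2 can give. Without *par-1*, the ratios were 4.47 and 4.33 in *meg-1 meg-2* libraries and 3.98 and 4.24 in wild-type libraries, a gap smaller than the difference between the wild-type libraries. The most abundant gene of each arm, *par-3* and *par-1*, was also left out. The ratios were then 2.06 and 2.01 in *meg-1 meg-2* libraries and 1.70 and 1.81 in wild-type libraries, with no overlap. The ratio of the genotypes, 0.40 on the log2 scale, was 0.22 without these genes. With all genes of the arms and without wild-type library B, it was 0.53. All 10 members together summed to 1627 and 1638 fpm in *meg-1 meg-2* libraries and 1511 and 1620 fpm in wild-type libraries.

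Genes around the network were grouped into 5 lists, and 1 gene was called among the 57 of 58 that could be tested. Over all tested genes, 2.34% were called higher and 1.36% lower. Of the 12 regulators of the PAR network, among them kinases, chaperones and regulators of CDC-42, 0 were called, at a median log2 fold change of 0.12. *pam-1*, a puromycin-sensitive aminopeptidase needed to establish the axis, had the largest value in this list, with 585 and 577 fpm in *meg-1 meg-2* libraries and 368 and 451 fpm in wild type (log2 fold change 0.51, limma adjusted *P*=0.0625). *cgef-1*, an exchange factor for CDC-42, had the smallest, −0.10 (limma adjusted *P*=0.629). edgeR with no minimum fold, which put 9.19% of all tested genes higher and 6.78% lower, put 2 of the 12 higher, *plk-2* and *pam-1*, and 0 lower.

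Among the 13 genes of symmetry breaking and cortical flow, the actomyosin flow that carries anterior PAR proteins forward, 0 were called and the median log2 fold change was 0.23. *rga-3*, which encodes a GTPase-activating protein, had the largest value, with 76.2 and 76.6 fpm in *meg-1 meg-2* libraries and 52.8 and 59.9 fpm in wild type (log2 fold change 0.40, limma adjusted *P*=0.0907). By edgeR with no minimum fold, 1 gene was higher (*rga-3*; 9.19% of all tested genes) and 3 were lower (6.78% of all). Among the lower genes were *let-502*, which encodes a kinase, and the myosin phosphatase gene *mel-11*.

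The list named cytoplasmic readers of PAR-1, of 9 genes, had the highest median of the 5 lists, 0.45, with 0 called. Whether each of its genes responds to PAR-1 was not tested. *meg-3*, a scaffold of P granules, had 145.7 and 145.8 fpm in *meg-1 meg-2* libraries and 84.0 and 106 fpm in wild type (log2 fold change 0.60, limma adjusted *P*=0.0531). *pie-1*, a zinc finger protein of the germ lineage, named here after its values were seen, passed the adjusted *P*-value alone (log2 fold change 0.57, limma adjusted *P*=0.0490). *mex-5* and *mex-6*, the direct link between PAR-1 and the cytoplasm and also named after their values were seen, had log2 fold changes of 0.45 and 0.45, with limma adjusted *P*-values of 0.0865 and 0.0854. The kinase gene *mbk-2* had the smallest value, −0.37 (limma adjusted *P*=0.0735). With edgeR and no minimum fold, 7 of the 9 were higher (9.19% of all tested genes) and 1, *mbk-2*, was lower (6.78% of all). However, *mex-5*, *mex-6*, *pie-1* and *pos-1* are also among the 12 early maternal markers.

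The only gene called was lower, where 1.36% of all tested genes were, and was in the list of 13 spindle positioning genes. *gpb-1*, the G protein beta subunit, had 61.0 and 61.2 fpm in *meg-1 meg-2* libraries and 108 and 102 fpm in wild-type libraries. It averaged 61.1±0.152 fpm in *meg-1 meg-2* and 105±4.40 fpm in wild type (SD, *n*=2), or −0.76±0.10 on the log2 scale (standard error, limma adjusted *P*=0.0253). edgeR gave −0.86 for *gpb-1* (edgeR adjusted *P*=0.0108). In limma, leaving out *meg-1 meg-2* library A or B gave log2 fold changes for *gpb-1* of −0.76 and −0.77. Leaving out wild-type library A or B gave −0.72 and −0.81. *gpa-16*, a G protein alpha subunit, had the largest value of the list, 0.40 (limma adjusted *P*=0.113), and the list's median was 0.15. edgeR with no minimum fold put 0 of the 13 higher (9.19% of all tested genes) and 3 lower (6.78% of all), *goa-1*, *gpb-1* and *csnk-1*.

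Relatives of the members had the lowest median, −0.27, over the 10 of 11 that could be tested, and 0 were called. *crp-1*, a GTPase related to CDC-42, had the smallest value, with 6.68 and 5.33 fpm in *meg-1 meg-2* libraries and 9.55 and 8.82 fpm in wild type (log2 fold change −0.54, limma adjusted *P*=0.0733). *aak-1*, a catalytic subunit of AMP-activated kinase, had the largest, 0.17 (limma adjusted *P*=0.457). edgeR with no minimum fold put 0 higher (9.19% of all tested genes) and 1 lower (6.78% of all), the protein kinase C gene *tpa-1*. *rac-2* was not tested, with at most 3 reads in a library. Without wild-type library B, the limma log2 fold change was −0.59 at *crp-1* and 0.24 at *aak-1*.

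**Figure D4:**
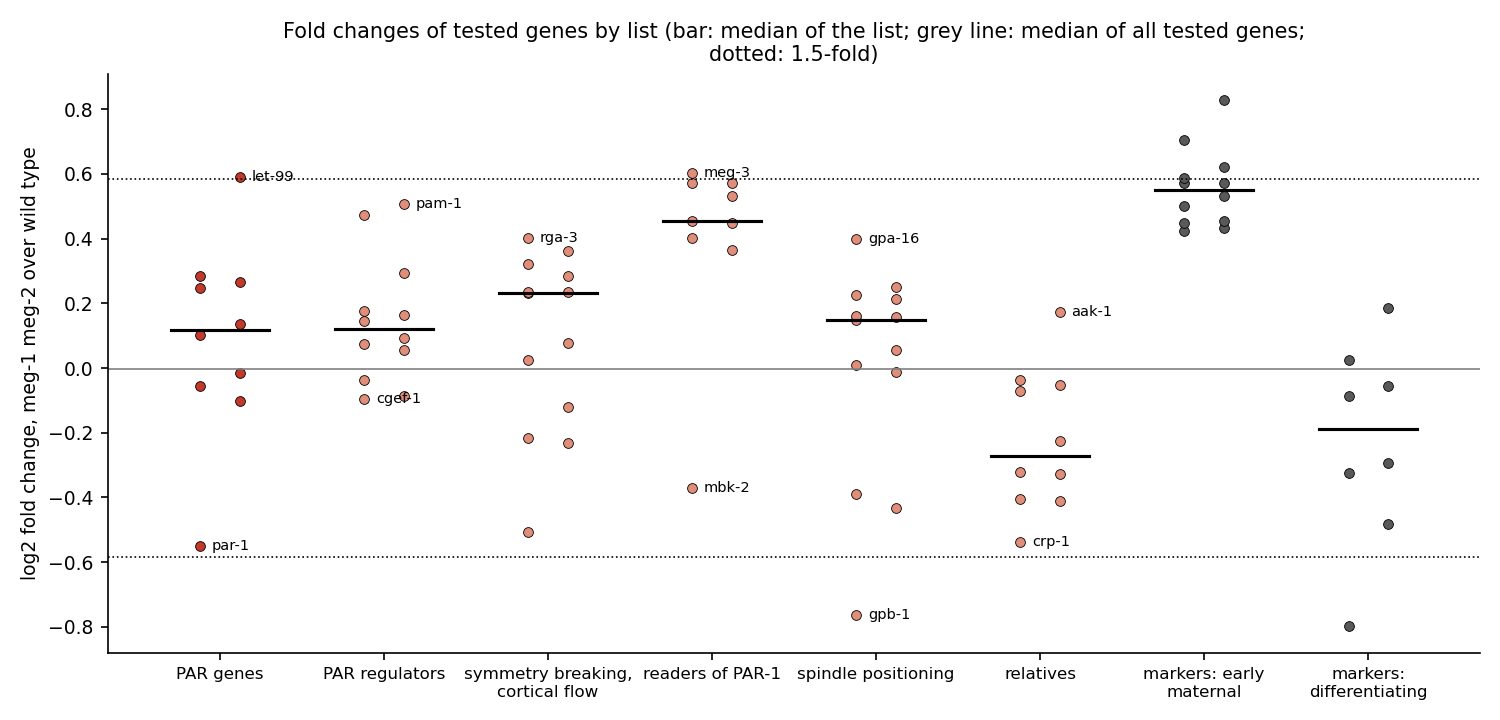
log2 fold change (y axis, above 0 where *meg-1 meg-2* is higher than wild type) for each tested gene of the PAR genes, the 5 lists around them and 2 marker lists (dots). Bars are list medians, the grey line the median of all tested genes and dotted lines 1.5-fold. *let-99*, *meg-3*, *gpb-1* and 5 marker genes lie past the dotted lines, and *par-1* lies just inside.

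Early maternal markers were higher in *meg-1 meg-2*. Markers of differentiating embryos went in both directions, and among them the summed muscle myosin genes were lower, mostly against wild-type library A. The 12 early maternal markers summed to 2117 and 2124 fpm in *meg-1 meg-2* libraries and to 1238 and 1575 fpm in wild-type libraries. Each of the 12 was higher without overlap in *meg-1 meg-2*, against 34.2% of all tested genes, and their median log2 fold change was 0.55. By the main rule 3 of the 12 were called higher (*oma-2*, *glp-1* and *cbd-1*), where 2.34% of all tested genes were. The 8 markers of differentiating embryos summed to 1766 and 1818 fpm in *meg-1 meg-2* libraries, against 2812 and 2018 fpm in wild-type libraries. Their median was −0.19 and 0 were called, where 2.34% of all tested genes were called higher and 1.36% lower. With the 1.5-fold minimum, edgeR called 0 higher (2.88% of all) and 1 lower, *unc-54* (2.5% of all). Of the 8, 3 were lower without overlap (*unc-54*, *myo-3* and *dpy-7*), against 30.4% of all tested genes. Only *elt-1* was higher without overlap, against 34.2% of all. The sum was carried by the 3 myosin genes *unc-54*, *myo-3* and *myo-2*, grouped after their values were seen. They had 1253 and 1271 fpm in *meg-1 meg-2* libraries and 2258 and 1432 fpm in wild-type libraries. Of these, *myo-2* overlapped, with 127 and 118 fpm in *meg-1 meg-2* libraries and 213 and 114 fpm in wild-type libraries. *myo-3* had 686 and 684 fpm in *meg-1 meg-2* libraries and 1002 and 707 fpm in wild-type libraries. *unc-54* had 440 and 468 fpm in *meg-1 meg-2* libraries and 1043 and 611 fpm in wild-type libraries (log2 fold change −0.80, limma adjusted *P*=0.0770). The other 5 summed to 513 and 548 fpm in *meg-1 meg-2* libraries and 554 and 586 fpm in wild-type libraries. In this sum, the nearest libraries of the genotypes lay closer together than the libraries within either genotype. The sum hides genes that moved in opposite directions. *dpy-7* had 121 and 133 fpm in *meg-1 meg-2* libraries and 186 and 170 fpm in wild-type libraries (log2 fold change −0.48, limma adjusted *P*=0.0556). *elt-1* was higher in *meg-1 meg-2* (0.19, limma adjusted *P*=0.311), and *elt-2*, *lin-26* and *pha-4* overlapped. The 5 early zygotic markers that could be tested had a median of 0.35, and 1, *end-1*, was called higher, where 2.34% of all tested genes were. The part of embryonic stage in the values of *par-1* and *let-99* was not tested, and genotype and stage of the collections cannot be told apart.

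Within wild type, each of the 12 maternal markers was lower in library A than in library B. The 3 myosin genes were higher in library A, and of the other 5 differentiation markers 1 was higher and 4 were lower. Of the 10 members, 9 were lower in wild-type library A than in library B, by 0.08 to 0.23 on the log2 scale, and their median difference was −0.19, against −0.12 over all tested genes. *par-1* was the exception, 0.17 higher in library A. Between the *meg-1 meg-2* libraries, no member differed by more than 0.09.

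**Figure D5:**
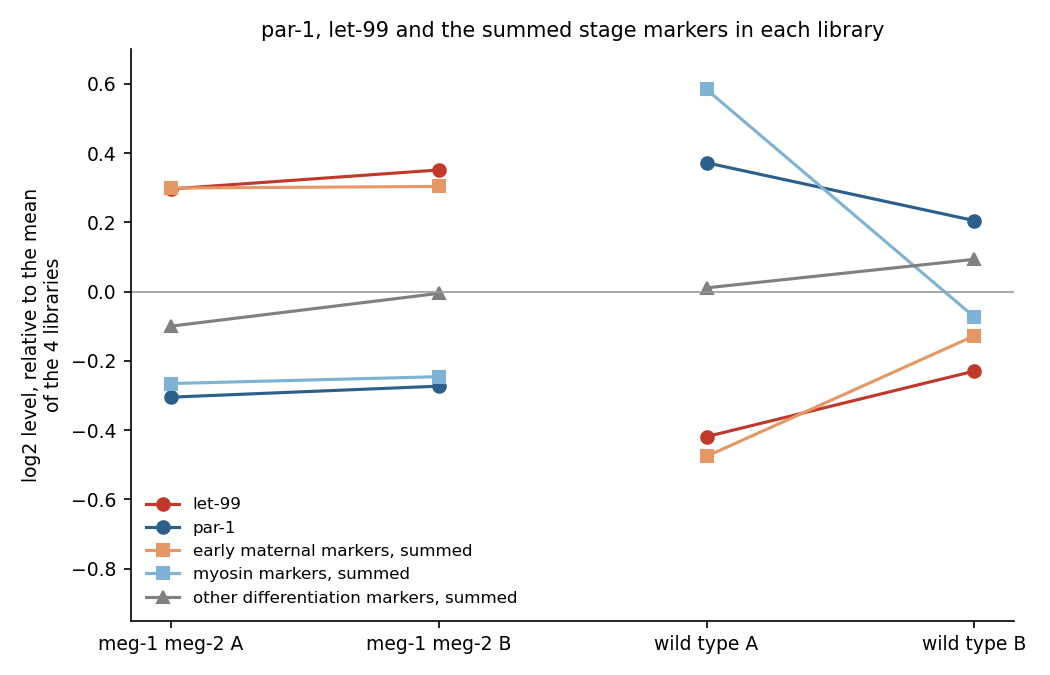
log2 level of *let-99*, *par-1* and the summed early maternal markers, myosin genes and other differentiation markers in each of the 4 libraries (x axis), each relative to its mean over the libraries (y axis). *let-99* and the early maternal markers are higher in *meg-1 meg-2* and lower in wild-type library A than in B. The step of *let-99* between the wild-type libraries, −0.19, is near the medians of the members (−0.19) and of the better expressed genes (−0.18). *par-1* and the myosin genes, grouped after their values were seen, run the opposite way. The sum of the other 5 differentiation markers is higher in wild-type library B than in A, with 4 of them higher in B and 1, *dpy-7*, higher in A.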

How the data were processed

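Members and gene lists were chosen with earlier results of these data known. Per the submitters' notes and methods, rRNA was removed, stranded libraries were aligned to ce10 with HISAT2, reads were counted on genes with HTSeq and genotypes compared with DESeq2; versions, annotation release and strand setting are not given in the sources used here. The authors deposited 1 table with, for each genotype, the mean signal of its 2 libraries in fpm, the same as FPKM per bp of gene length, and the length. Its fold changes and adjusted *P*-values (2 columns) were not used. Each mean is a sum of whole reads of 2 libraries times a step per library; 1 pair of whole numbers fitted within a relative tolerance of 8e-15 for all 42048 wild-type means and 42047 *meg-1 meg-2* means. The method was tested on simulated data.

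Genes whose mean reached 0.002178852 FPKM were tested with limma 3.58.1 (R 4.3.3; mean trend) on log2(FPKM per kb + 1.997), a scale that understates changes of low genes. edgeR 4.0.16 and DESeq2 1.42.0 were fitted to recovered reads of the tested genes. Whether pools of embryos within a genotype were independent beyond separate cultures is not stated, so *P*-values measure the spread between these samples. With 1 exception, named genes were all members, *meg-1*, *meg-2*, *ftt-2*, called genes of the lists and each list's largest and smallest log2 fold change; other list genes named were chosen after their values were seen. The exception is not reported here. Of the IDs, 41759 matched the WBcel235 annotation, the build of all coordinates; ce10 was not used here.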

Additional observations from a re-analysis of the deposited data

How the results depend on the processing

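With wild-type library B left out, *par-3* and *cdc-42* changed sign (0.0447 and 0.0761; over libraries left out in turn, −0.154 to 0.0447 and −0.106 to 0.0761). The number of PAR genes called was 0 with pseudocounts of 0.01 or 1 times the median, no filter, median-ratio scaling or limma without its trend. It was 2 with DESeq2 and 2 with no minimum fold change. With no filter, limma missed the targeted genes as well (adjusted *P*=0.0858 for *meg-1* and 0.223 for *meg-2*). Without its trend, it missed *meg-2* (adjusted *P*=0.0818). A count of 0 in these settings, for PAR or list genes, therefore cannot show that a gene did not change. Quantile normalization and edgeR called 1, *par-1* in place of *let-99*. Leaving out libraries in turn gave a member median of 0.0321 to 0.205 and a log2 ratio of the arms of 0.27 to 0.53. With all libraries, that ratio was 0.22 without the most abundant gene of each arm. Of the list genes, 0 were called with no filter or no trend, 2 among genes at or above the median level, with quantile normalization, among protein-coding genes only (chosen after seeing the data) or at an unadjusted *P*-value, 3 with no minimum fold change, and 0 to 9 with libraries left out in turn. No paired analysis was possible because the recovered libraries could not be matched to replicate numbers.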
